A study of Mus musculus with 24 samples.

Results

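The 8 chemokine receptor genes Ccr1, Ccr2, Ccr3, Ccr7, Cx3cr1, Cxcr2, Cxcr3 and Cxcr4 were followed through an RNA and m6A survey of tumour myeloid cells. They were taken as a fixed list of receptors known from myeloid cells, by symbol, and each matched 1 of the 54446 gene identifiers in the count files. CD11b+ myeloid cells had been sorted from subcutaneous MC38 tumours, a transplanted mouse colon carcinoma line. WT mice carried floxed Ythdf2 alleles without Cre, and Ythdf2-cKO mice carried the same alleles with Cre expressed from the Lyz2 locus, a driver of macrophages, monocytes and neutrophils. In the IR groups the tumour received a single dose of 20 Gy, with cells taken 3 days afterwards, and the Ctrl groups received none. Total mRNA (Input) and the RNA pulled down with an m6A antibody (IP), m6A being N6-methyladenosine, were each sequenced in 3 replicates per genotype and treatment, which made 24 libraries in 8 groups. The mice were of both sexes and 8 to 10 weeks old. The study's m6A methods give 5 pooled mice per replicate for WT mice 3 days after irradiation, and do not state the pooling of the other groups. Replicates are called technical in one place of the methods and biological in another, so that errors and p-values describe the spread between these libraries, which may be technical.

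Chemokine receptors are G protein-coupled receptors on the cell surface that steer a leukocyte towards the source of their ligand, a small secreted chemokine. Ccr2 draws inflammatory monocytes out of the bone marrow and into tumours, Cx3cr1 marks patrolling monocytes and many tissue macrophages, and Ccr1 binds several inflammatory CC chemokines. Cxcr2 is the main receptor by which neutrophils follow Cxcl1 and Cxcl2, and Cxcr4 holds leukocytes where Cxcl12 is made. Ccr7 takes mature dendritic cells to the lymph node, Ccr3 is known from eosinophils and Cxcr3 from T and NK cells. N6-methyladenosine is a mark inside mRNA that the cytoplasmic reader Ythdf2 binds, and mRNAs bound by Ythdf2 are known to be degraded sooner.

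Gene counts summed to between 65180075 and 83661576 per Input library and between 68846321 and 86421888 per IP library. The cells expressed Itgam, the gene of CD11b, at 378 to 391 CPM (the counts-per-million unit, scaled to the gene counts of each library) in the WT Ctrl Inputs and 328 to 342 CPM in the cKO IR Inputs, the lowest group. Ythdf2, the gene targeted, stood at 95.6 to 98.1 CPM in WT Ctrl and 174 to 185 CPM in cKO Ctrl, with a log2 change of 0.88 (SE 0.036, adjusted p = 6.04e-13) by edgeR's quasi-likelihood test. Its gene count was thus higher in cKO, and since a gene count also takes reads from exons that are not deleted, it does not check the labels. Lyz2, whose own coding sequence the Cre insertion disrupts, separated the genotypes in the Inputs, at 20250 to 20790 CPM in WT Ctrl and 296 to 304 CPM in cKO Ctrl. The IR IP libraries went against their labels, since Lyz2 was at 88.5 to 91.1 CPM in those labelled WT IR and 19510 to 19800 CPM in the cKO IR ones. The IR IP libraries are therefore named by their labels throughout, their IP over Input pairs IP and Input libraries by label, and no difference between the genotypes was drawn from them.

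Ccr7 was by far the most abundant of the 8 receptor mRNAs in the Inputs. As CPM per kilobase of exon (FPKM, the scale on which genes of different length were compared), Ccr7 reached 185 ± 2.49 FPKM in WT Ctrl and 289 ± 6.56 FPKM in WT IR, and 211 ± 2.08 FPKM in cKO Ctrl and 326 ± 7.98 FPKM in cKO IR (mean ± SD, n = 3). It made up 66.4% of the summed FPKM of the 8 genes in WT Ctrl, 67.7% in cKO Ctrl, 81.1% in WT IR and 80.1% in cKO IR. Behind it, Cx3cr1, Ccr2, Cxcr4 and Ccr1 lay close together in WT Ctrl, at 23.8 ± 0.718, 22.04 ± 0.727, 21.3 ± 1.43 and 19.3 ± 0.516 FPKM. Of these neighbours only Ccr2 and Cxcr4 overlapped in their replicates. Cxcr2 followed at 6.02 ± 0.381 FPKM, and Ccr3 and Cxcr3 came last at 0.455 ± 0.0806 and 0.348 ± 0.0735 FPKM with overlapping replicates.

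After irradiation the order behind Ccr7 changed in both genotypes. In WT IR, Cxcr4 (23.9 ± 2.38 FPKM) and Ccr1 (19.9 ± 1.14 FPKM) stood above Ccr2 (11.5 ± 1.42 FPKM) and Cx3cr1 (9.62 ± 0.501 FPKM), whose replicates overlapped. In cKO IR the order was the same, with Cxcr4 at 28.5 ± 0.0964, Ccr1 at 25.2 ± 0.760, Ccr2 at 14.1 ± 0.701 and Cx3cr1 at 11.6 ± 0.178 FPKM, and none of these neighbours overlapped. The ratio of Ccr2 to Ccr7 within a library, from FPKM, went from 0.119 ± 0.00560 in WT Ctrl to 0.0397 ± 0.00580 in WT IR, and from 0.139 ± 0.00427 in cKO Ctrl to 0.0431 ± 0.00284 in cKO IR (SD, n = 3).

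**Figure D1:**
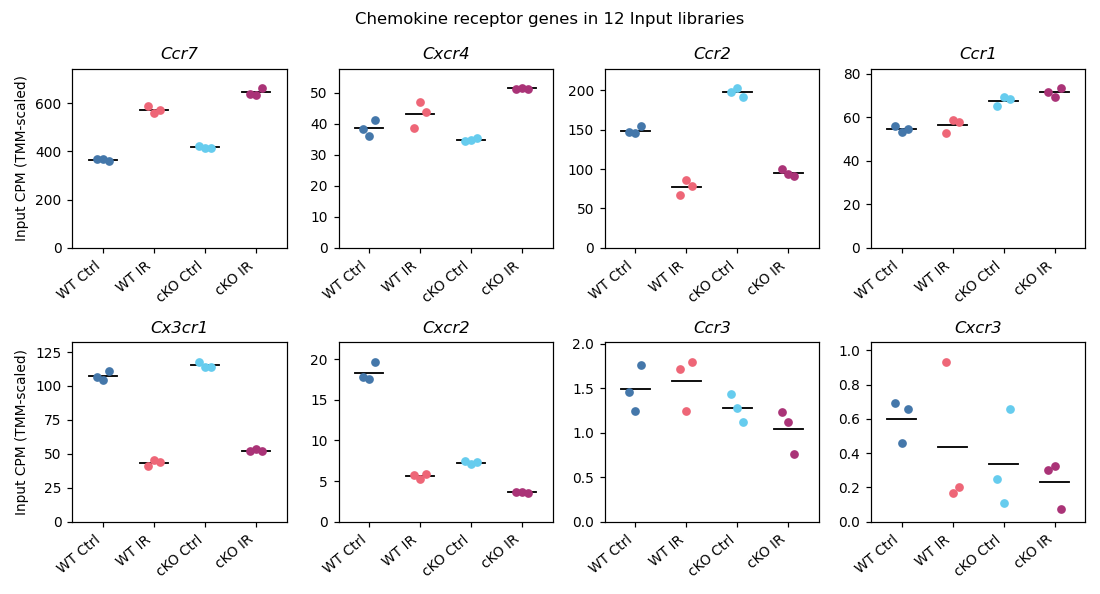
Input level of each receptor gene in CPM (vertical axes start at 0 and differ between genes) in the 4 groups named on the horizontal axes. Each point is 1 library and each black line the mean of 3, and the points of Ccr2, Cx3cr1 and Cxcr2 lie lower in IR than in Ctrl of the same genotype while those of Ccr7 lie higher.

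After irradiation the monocyte receptors Ccr2 and Cx3cr1 and the neutrophil receptor Cxcr2 were lower and Ccr7 and Cxcr4 higher, in both genotypes, though the rise of Cxcr4 in WT was lost in several alternative fits. In WT IR vs WT Ctrl, 3 of the 8 genes were called lower and 2 higher (edgeR's quasi-likelihood test, Benjamini-Hochberg adjusted p under 0.05 over 16090 genes), where 17% of all tested genes were called lower and 14.7% higher. In cKO IR vs cKO Ctrl the counts were again 3 lower and 2 higher, for the same 5 genes, with backgrounds of 23.8% and 21.8%. All 8 genes passed the filter of at least 10 counts in at least 3 Inputs. In sorted but mixed cells, fewer cells of a type and less RNA per cell cannot be told apart.

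Ccr2 had 147, 146 and 155 CPM in the 3 WT Ctrl Inputs and 67.5, 86.7 and 78.1 CPM in WT IR. The cKO libraries held 198, 203 and 192 CPM without and 100.3, 93.5 and 91.1 CPM with irradiation. Irradiated and untreated libraries did not overlap in either genotype. The log2 change of Ccr2 was -0.94 (SE 0.062, adjusted p = 2.67e-10) in WT, 1.92-fold lower, and -1.06 (SE 0.061, adjusted p = 3.11e-11) in cKO, 2.08-fold lower. Cx3cr1 moved with it, from 107, 104 and 111 CPM in WT Ctrl to 40.9, 45.3 and 43.8 CPM in WT IR. In cKO, Cx3cr1 had 118, 114 and 114 CPM in Ctrl and 51.8, 53.2 and 52.0 CPM in IR, again without overlap. Its log2 change was -1.31 (SE 0.042, adjusted p = 5.89e-15) in WT and -1.14 (SE 0.042, adjusted p = 5.35e-14) in cKO. Beside these falls, 7 inflammatory monocyte markers summed to 709.9 to 762 CPM in WT Ctrl and 262 to 311 in WT IR. In cKO the sum was 521 to 548 CPM without and 342 to 355 with irradiation. Of the 7 markers, 6 in WT and 5 in cKO were called lower after irradiation, and 1 was called higher in WT. Vcan rose in WT, from a mean of 59.0 to 79.3 CPM. Most of the sum was Chil3, which averaged 537 CPM in untreated and 142 in irradiated WT tumours. In cKO tumours Chil3 averaged 335 CPM without and 186 with irradiation. The sum of 8 macrophage markers was 4174 to 4320, 3915 to 4408, 4328 to 4460 and 4301 to 4410 CPM in the same order, and Apoe alone averaged 2164 to 2482 CPM of it per group. Single macrophage markers moved nonetheless: 4 of 8 were called lower after irradiation in WT, and in cKO 6 were called lower and 2 higher. The part of these cells in the receptor values was not tested.

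Cxcr2 showed the largest fall of the 8 genes after irradiation in WT. It had 17.8, 17.6 and 19.7 CPM in WT Ctrl and 5.75, 5.20 and 5.87 CPM in WT IR, a 3.27-fold difference with a log2 change of -1.71 (SE 0.078, adjusted p = 1.08e-12). In cKO the step was from 7.42, 7.08 and 7.29 to 3.68, 3.68 and 3.55 CPM, a log2 change of -1.0 (SE 0.084, adjusted p = 5.91e-09). No IR library reached the lowest Ctrl library of its genotype. Most neutrophil markers moved alongside. The sum of 8 of them was 2406 to 2525 CPM in WT Ctrl against 776 to 833 in WT IR. For cKO it was 1167 to 1195 CPM without and 736 to 741 with irradiation. After irradiation 7 of 8 were called lower and 1 higher in WT, and 6 lower and 1 higher in cKO. Il1f9 rose, from a mean of 33.8 to 42.0 CPM in WT and from 23.2 to 43.3 in cKO. S100a9, Lcn2 and S100a8 made up most of the sum in untreated WT tumours, at means of 1033, 488 and 407.5 CPM. Mmp8 moved less, from a mean of 362 to 318 CPM in WT and from 259 to 250 in cKO. The part of neutrophils in the Cxcr2 values was not tested.

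Ccr7 and Cxcr4 went the other way. Ccr7 had 368, 368 and 359.7 CPM in WT Ctrl and 586, 559.9 and 572 CPM in WT IR, and 423, 415 and 416 CPM in cKO Ctrl and 639, 633 and 663 CPM in cKO IR. The rise was 1.57-fold in WT, with a log2 change of 0.65 (SE 0.030, adjusted p = 1.04e-12), and 1.55-fold in cKO, with 0.63 (SE 0.029, adjusted p = 1.67e-12), and the groups did not overlap. The summed level of 9 dendritic cell markers was 2042 to 2080 CPM in WT Ctrl against 3037 to 3137 in WT IR, and 2156 to 2180 in cKO Ctrl against 2967 to 2997 in cKO IR, with 7 of 8 tested markers called higher after irradiation in WT and 6 of 8 in cKO. Of that list Cd209a was listed at 0 in all 3 WT IR Inputs, and the part of dendritic cells in the Ccr7 values was not tested. Cxcr4 had 38.4, 36.0 and 41.2 CPM in WT Ctrl and 38.6, 47.1 and 43.8 CPM in WT IR, which overlapped. Its log2 change in WT, 0.16 (SE 0.061, adjusted p = 0.045), was called, but without 1 library at a time the adjusted p rose to 0.106 (WT Ctrl replicate 1), 0.212 (WT Ctrl replicate 2), 0.226 (WT IR replicate 2, with the change at 0.098) and 0.118 (WT IR replicate 3). In cKO the groups did not overlap, at 34.3, 34.8 and 35.4 CPM in Ctrl and 51.4, 51.6 and 51.3 CPM in IR, and Cxcr4 rose by 0.56 (SE 0.061, adjusted p = 1.84e-07) on the log2 scale.

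Ccr1 did not pass the test for irradiation in either genotype. It had 56.2, 53.3 and 54.5 CPM in WT Ctrl and 52.7, 58.6 and 57.9 CPM in WT IR, which overlapped. In cKO its IR libraries, at 71.6, 69.4 and 73.7 CPM, lay just above its Ctrl libraries, at 65.4, 69.2 and 68.6 CPM. The log2 difference was 0.045 (SE 0.046, adjusted p = 0.507) in WT and 0.078 (SE 0.045, adjusted p = 0.172) in cKO, and its 95% interval spanned -0.045 to 0.14 and -0.010 to 0.17. In a fit of the 6 cKO Inputs alone the difference in cKO was 0.085 with an adjusted p of 0.0426. Ccr3, the eosinophil receptor, had 83 to 132 counts in the WT Inputs and 51 to 108 in the cKO Inputs, under 2 CPM in every library. It did not pass the test after irradiation, with 0.093 (SE 0.22, adjusted p = 0.795) in WT and -0.29 (SE 0.23, adjusted p = 0.324) in cKO. The summed level of 6 eosinophil markers, of which 3 averaged under 1 CPM even in WT Ctrl, was 20.2 to 21.3 CPM in WT Ctrl against 1.87 to 2.56 in WT IR, and 9.31 to 11.5 in cKO Ctrl against 1.46 to 2.13 in cKO IR, and its members Prg3, Epx and Ear1 were at 0 in all WT IR Inputs. The part of eosinophils in the Ccr3 values was not tested. Cxcr3, the T and NK cell receptor, had 5 to 60 counts per Input, and its 3 WT IR libraries held 60, 11 and 14. Its log2 difference was -0.47 (SE 0.63, adjusted p = 0.626) in WT and -0.52 (SE 0.68, adjusted p = 0.578) in cKO, which did not pass the test. Without WT IR replicate 1 the difference in WT was -1.69 with an adjusted p of 0.0378, and without cKO Ctrl replicate 3 the difference in cKO turned to 0.41 (adjusted p = 0.71). A change of Cxcr3 could not be settled at this depth. Markers of T cells summed to 1.64 to 3.05 CPM over the 4 groups and those of NK cells to 0.014 to 0.34 CPM, with Cd3e at 0 in WT Ctrl, WT IR and cKO Ctrl. Sums over other lists were 0.44 to 1.15 CPM for B cells, 6.72 to 10.5 for plasmacytoid dendritic cells, 1.38 to 13.7 for mast cells and basophils, 0.38 to 1.26 for tumour epithelium and 0.61 to 3.08 for endothelium and fibroblasts.

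**Figure D2:**
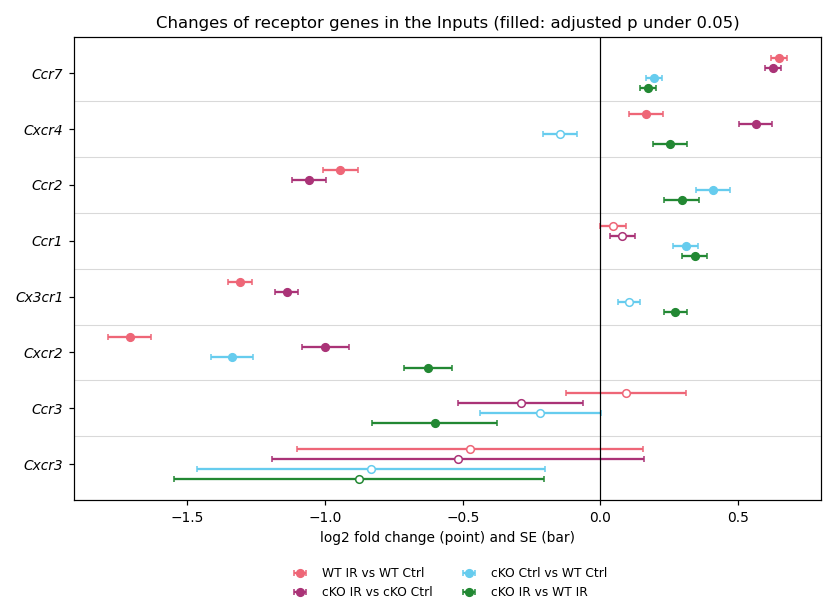
log2 fold change of each receptor gene between Input groups (points) with 1 SE on either side (bars), in the 4 comparisons named in the key, 3 libraries a group. Filled points have an adjusted p under 0.05, and the 3 points of Cxcr2 furthest to the left are -1.71 for WT IR, -1.34 for cKO Ctrl vs WT Ctrl and -1.0 for cKO IR.

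In the cKO, Cxcr2 was lower and Ccr1, Ccr2 and Ccr7 were higher than in WT, in untreated and in irradiated tumours. In cKO Ctrl vs WT Ctrl, 1 gene was called lower and 3 higher, beside 7.61% and 8.05% of all tested genes. In cKO IR vs WT IR, 2 were called lower and 5 higher, beside 23.8% and 23.9%. The groups compared did not overlap in CPM for any of the genes called. Cxcr2 was 2.53-fold lower in cKO Ctrl, with a log2 difference of -1.34 (SE 0.076, adjusted p = 1.21e-10), and 1.54-fold lower in cKO IR, with -0.63 (SE 0.086, adjusted p = 4.60e-06). Of 8 neutrophil markers 7 were called lower and 1 higher in cKO Ctrl vs WT Ctrl, and 5 lower and 1 higher in cKO IR vs WT IR. Of 8 macrophage markers 5 were called higher and 1 lower in the first of these comparisons, and 5 higher and 2 lower in the second. Of 7 inflammatory monocyte markers 1 was called higher and 4 lower in Ctrl, and 5 higher and 1 lower in IR. Of 8 tested dendritic cell markers 1 was called higher and 1 lower in Ctrl, and 1 higher and 4 lower in IR. The part of these cells in the receptor differences between genotypes was not tested.

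For the 5 receptors called higher in cKO in at least 1 of these comparisons, the log2 differences called ran from 0.17 to 0.41. Ccr1 was 1.24-fold higher in cKO Ctrl, at 65.4, 69.2 and 68.6 CPM, with a log2 difference of 0.31 (SE 0.045, adjusted p = 5.44e-05). It was 1.27-fold higher in cKO IR, at 71.6, 69.4 and 73.7 CPM, with 0.34 (SE 0.046, adjusted p = 2.94e-06). All 6 cKO Inputs lay above all 6 WT Inputs for Ccr1, and the same held for no other of the 8 genes. Ccr2 differed by 0.41 (SE 0.060, adjusted p = 5.81e-05) in Ctrl and 0.29 (SE 0.062, adjusted p = 5.32e-04) in IR. Ccr7 differed by 0.19 (SE 0.029, adjusted p = 7.97e-05) in Ctrl and 0.17 (SE 0.029, adjusted p = 5.45e-05) in IR. In the irradiated libraries alone Cx3cr1 and Cxcr4 were also called higher in cKO, by 0.27 (SE 0.043, adjusted p = 2.14e-05) and 0.25 (SE 0.060, adjusted p = 0.00164). In Ctrl their differences were 0.10 (SE 0.040, adjusted p = 0.0996) and -0.15 (SE 0.061, adjusted p = 0.121), and a fit of the 6 Ctrl Inputs alone called both, with adjusted p of 0.00982 and 0.019. Ccr3 was called lower in cKO IR, -0.60 (SE 0.23, adjusted p = 0.0333), from 1.71, 1.25 and 1.80 CPM in WT IR and 1.24, 1.123 and 0.766 CPM in cKO IR, where the highest cKO IR library all but met the lowest of WT IR. Without WT IR replicate 1, WT IR replicate 3 or cKO IR replicate 3, its adjusted p was 0.0784, 0.123 and 0.154.

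The effect of irradiation differed between the genotypes for 3 receptors. The interaction, which is the log2 change in cKO minus that in WT, was above 0 for Cxcr2, Cxcr4 and Cx3cr1, and 15% of all tested genes were called above 0. For Cxcr2 it was 0.71 (SE 0.11, adjusted p = 7.70e-05), a smaller fall in cKO from a lower start. For Cxcr4 it was 0.40 (SE 0.086, adjusted p = 0.00125), a larger rise in cKO. For Cx3cr1 it was 0.17 (SE 0.059, adjusted p = 0.0336), and leaving out any of 8 of the 12 Inputs took the adjusted p over 0.05, to at most 0.0854. Of 8 neutrophil markers 6 were called above 0 in the interaction, and of 7 inflammatory monocyte markers 6 were called above 0 and 1 below, and their part in the values of Cxcr2 and Cx3cr1 was not tested. By edgeR 0 members were called below 0, where 15.2% of all genes were, 0 had an unadjusted p under 0.05 in that direction and DESeq2 called 0. For Ccr7 the interaction was -0.021 (SE 0.042, adjusted p = 0.764), with a 95% interval of -0.10 to 0.061. Ccr2 had -0.11 (SE 0.086, adjusted p = 0.362), and without WT IR replicate 1 this became -0.20 with an adjusted p of 0.00512.

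The m6A antibody divided the 8 mRNAs, as it divided most tested genes. Ccr1 and Ccr2 were enriched in every group, Cx3cr1, Ccr3, Cxcr3, Ccr7 and Cxcr4 were depleted in every group, and Cxcr2 was depleted in WT Ctrl and enriched in the other groups. IP over Input is the log2 ratio of IP to Input counts as edgeR fitted it, with all libraries scaled together by the trimmed mean of M-values (TMM), so that 0 is the level the scaling sets and not the absence of m6A. The Input CPM printed here were scaled over the Inputs alone, so their ratio to the IP CPM differs somewhat from it. All 8 genes were called in all 4 groups by edgeR's quasi-likelihood test over 17373 genes: 2 higher and 6 lower in WT Ctrl, and 3 higher and 5 lower in cKO Ctrl and in the libraries labelled WT IR and cKO IR. Of all tested genes, 38.1% were called higher and 37.5% lower in WT Ctrl, 37.8% and 36% in cKO Ctrl, 37% and 36.5% in the libraries labelled WT IR, and 36.9% and 36.9% in the cKO IR ones. The authors' peak lists were called from the same IP libraries, so they are not separate evidence. They divided the genes much alike, except that Cxcr2, enriched in cKO Ctrl, had no peak shared by all 3 replicates there. Ccr1 and Ccr2 had peaks over their exons in all 12 IP libraries, Cxcr2 in 8, and the other 5 genes in none. Ccr1 and Ccr2 had a peak shared by all 3 replicates in every group. Cxcr2 had one only in the libraries labelled WT IR and cKO IR. Across all tested genes, 27.3% had an exonic peak shared by all 3 replicates in WT Ctrl, 25.4% in cKO Ctrl, and 23.0 and 20.5% in the libraries labelled WT IR and cKO IR.

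**Figure D3:**
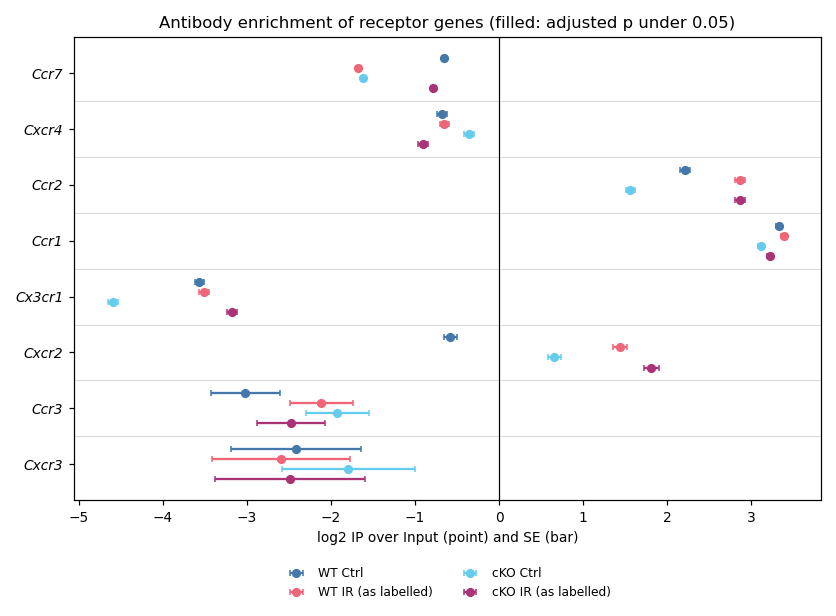
log2 IP over Input of each receptor gene (points) with 1 SE on either side (bars) in the 4 groups, 3 IP and 3 Input libraries each, with the IR groups as labelled. All points are filled, each with an adjusted p under 0.05, and they run from -4.59 for Cx3cr1 in cKO Ctrl to 3.39 for Ccr1 in the libraries labelled WT IR.

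Ccr1 (chr9:123962124-123968692, minus strand, mm10) was the most enriched of the 8. Its IP libraries held 596, 592 and 585 CPM in WT Ctrl, 647, 623 and 645 in cKO Ctrl, 628, 636 and 646 in those labelled WT IR and 712, 730.5 and 716 in the cKO IR ones, against Inputs of 52.7 to 73.7 CPM. IP over Input was 3.32 (SE 0.035, adjusted p = 3.26e-37) in WT Ctrl, 3.12 (SE 0.035, adjusted p = 1.35e-36) in cKO Ctrl, 3.39 in the libraries labelled WT IR and 3.23 in the cKO IR ones. The 12 libraries had 30 peaks over its 2 exons, 160 to 2407 bases wide and 3.09 to 7.58-fold enriched. Summits gathered at 4 places. All 12 libraries had a summit in exon 1, in the 5′ UTR. In 7 the summit of the exon 2 peak lay in the 5′ UTR, at -1119 counted from the last coding base along the exons, and in 5 it lay in the 3′ UTR, 127 bases after that base. A further 6 small peaks had their summit about 900 bases into the 3′ UTR.

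The windows around the 2 sites of Ccr1 in its 5′ UTR are shown because they hold a sequence of the kind that the m6A writer complex is known to prefer, in capitals, in the strand of the mRNA.
Ccr1, exon 2, chr9:123964545-123964569, minus strand: ttgttgcccaGGACTcactgtcttt
Ccr1, exon 1, chr9:123968454-123968478, minus strand: taaaaaagaaGAACTttacaccatt
The A of the first motif lay 11 bases upstream of the median summit and that of the second 14 bases downstream. The motifs searched were GGACT, its relatives with another last base, GGACA or GGACC, and those with another first base, AGACT, or second base, GAACT, of which no pair can match at the same position, in windows of 101 bases around each summit place on both strands. Of the 24 summit places of Ccr1, Ccr2 and Cxcr2, 8 had a match on the strand of the mRNA and 8 on the other strand. Around the summits of all 189260 peaks on the chromosomes, 46.1% of windows had a match on the peak's strand and 38.8% on the other, and for GGACT alone 10.9 and 8.64%. Sequences are from the RefSeq copy of GRCm38.p6.

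Ccr2 (chr9:124101950-124113557, plus strand) was enriched throughout but not evenly. Its IP libraries held 748, 732 and 753 CPM in WT Ctrl, 671, 598 and 630.3 in cKO Ctrl, 579, 580.3 and 657 in those labelled WT IR and 727, 754 and 754 in the cKO IR ones. IP over Input was 2.21 (SE 0.056, adjusted p = 5.63e-27) in WT Ctrl and 1.56 (SE 0.055, adjusted p = 5.84e-23) in cKO Ctrl, and 2.86 and 2.87 in the libraries labelled WT IR and cKO IR. It had 50 peaks, more than any other of the 8 genes, with 12 summits in the 5′ UTR and 38 in the 3′ UTR of its annotated exons. A summit 132 bases past the last coding base (median position) was found in all 12 libraries, and one about 1041 bases past it in 10. The peak of highest fold in a library lay in the 3′ UTR in 9 libraries and in the 5′ UTR in WT Ctrl replicates 1 and 3 and in replicate 2 of those labelled WT IR. Peak folds ran from 3.16 to 9.05 in WT Ctrl, 1.98 to 6.56 in cKO Ctrl, 3.46 to 9.42 in the libraries labelled WT IR and 3.35 to 14.9 in the cKO IR ones. The number of peaks was 4 in each WT Ctrl library and 5, 5 and 6 in the cKO Ctrl libraries, where 2 or 3 shorter peaks took the place of the 3′ UTR peak of 1778 to 1786 bases seen in WT Ctrl. None of the 5 motifs lay within 50 bases of the 132-base and 1041-base places.

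Cxcr2 (chr1:74153989-74161246, plus strand) was the one gene whose peaks came and went. Its IP level changed little, 12.9, 12.4 and 14.4 CPM in WT Ctrl, 12.6, 10.95 and 13.8 in cKO Ctrl, 15.6, 16.2 and 17.2 in the libraries labelled WT IR and 14.1, 14.1 and 12.99 in the cKO IR ones. The group labelled WT IR lay above all others and the remaining 3 overlapped. Over the same groups its Input means ran from 18.3 CPM in WT Ctrl to 3.63 CPM in cKO IR. IP over Input was -0.58 (SE 0.077, adjusted p = 3.14e-08) in WT Ctrl, 0.66 (SE 0.081, adjusted p = 7.46e-09) in cKO Ctrl, 1.44 (SE 0.083, adjusted p = 8.17e-17) in the libraries labelled WT IR and 1.81 (SE 0.087, adjusted p = 4.87e-19) in the cKO IR ones. None of the 3 WT Ctrl libraries, where the Input level was highest, had a peak over Cxcr2. The cKO Ctrl libraries had 1, 0 and 2, those labelled WT IR 5, 4 and 5, and those labelled cKO IR 3, 5 and 3. The 28 peaks were 2.43 to 6.37-fold enriched, with 10 summits in the coding sequence and 18 in the 3′ UTR. Peaks shared by all 3 replicates numbered 3 in the libraries labelled WT IR and 2 in the cKO IR ones. Counting only peaks of at least 4-fold enrichment left 0 and 1. Where peaks had to overlap by 50% of the length of each, 3 and 0 were left.

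The place in the coding sequence of Cxcr2 that recurred in all 3 libraries labelled WT IR, all 3 labelled cKO IR and 1 of cKO Ctrl is shown because GGACT, in capitals, coincided with it, its A lying 1 base downstream of the median summit.
Cxcr2, last exon, chr1:74158670-74158694, plus strand: gtaaatggatGGACTtttggctcaa
The place that recurred in the 3′ UTR, about 216 bases past the last coding base, was found in 2 cKO Ctrl libraries, 2 labelled WT IR and 3 labelled cKO IR, and none of the 5 motifs lay within 50 bases of it. The exons of Cxcr2 held 2 GGACT in 3048 bases, or 0.656 per kilobase, and 71.3% of tested genes with exon sequence had at least that density.

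**Figure D4:**
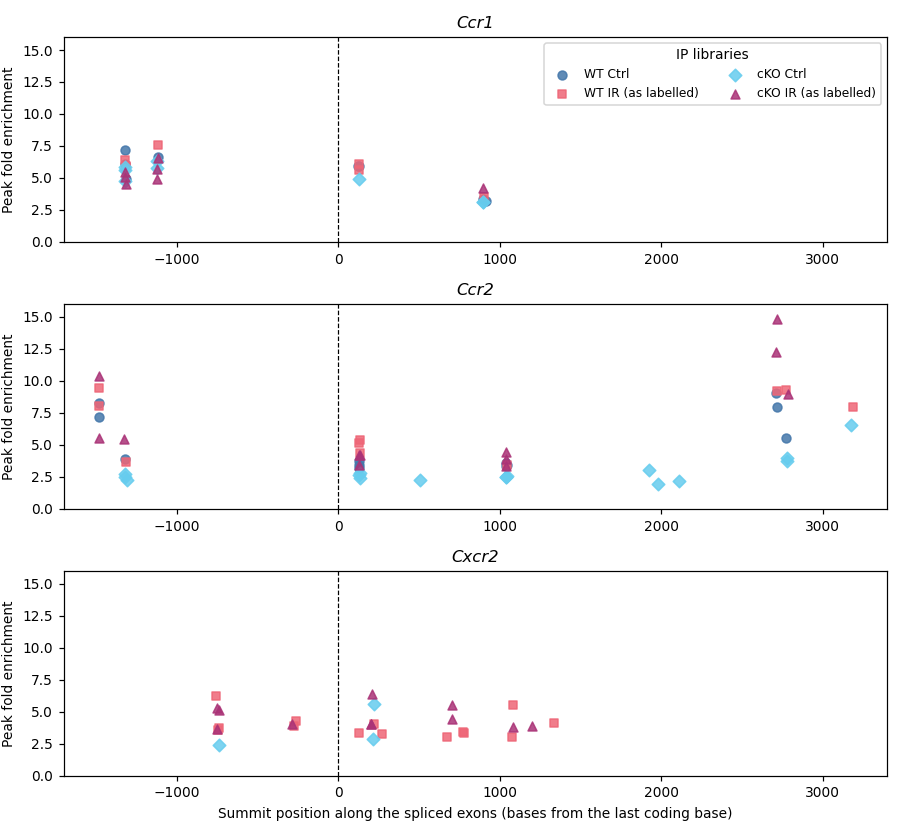
Position of each peak summit along the spliced exons of Ccr1, Ccr2 and Cxcr2 (bases from the last coding base, dashed line at 0) against the fold enrichment of the peak, for the 12 IP libraries, with the IR groups as labelled. Ccr1 and Ccr2 have summits from every group, whereas Cxcr2 has none from WT Ctrl and 3 from cKO Ctrl.

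The other 5 genes had no peak over their exons. Ccr7 (chr11:99144196-99155077, minus strand) is the clearest case, since it was the most abundant: its IP libraries held 248, 249 and 253 CPM in WT Ctrl and 145, 149 and 151 in cKO Ctrl, from 11362 to 20020 counts. IP over Input was -0.66 (SE 0.028, adjusted p = 1.09e-20) in WT Ctrl and -1.61 (SE 0.028, adjusted p = 2.76e-31) in cKO Ctrl. In the IR libraries Ccr7 stood at 198, 196 and 186 CPM in those labelled WT IR and 401, 404 and 405 CPM in the cKO IR ones, with IP over Input of -1.67 and -0.78. The exons of Ccr7 held 1.52 GGACT per kilobase, a density that 21.4% of tested genes reached.

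Cx3cr1 (chr9:119901616-120069879, minus strand) was the most depleted, at 10.1, 10.1 and 9.16 CPM in the WT Ctrl IP libraries and 5.75, 4.52 and 5.34 CPM in cKO Ctrl against Input means of 107 and 115 CPM. IP over Input was -3.57 (SE 0.056, adjusted p = 1.02e-32) in WT Ctrl and -4.59 (SE 0.060, adjusted p = 1.06e-34) in cKO Ctrl. The annotated gene spans 168264 bases and contains other genes in its introns, among them Csrnp1, on the same strand. The 10 peaks listed within the span of Cx3cr1 on its strand all overlapped exons of Csrnp1 and none of Cx3cr1. Cxcr4 (chr1:128588199-128592293, minus strand) had IP over Input of -0.67 (SE 0.059, adjusted p = 3.26e-12) in WT Ctrl and -0.36 (SE 0.059, adjusted p = 1.64e-06) in cKO Ctrl. Ccr3 (chr9:124021972-124031689, plus strand) had 8 to 52 counts per IP library and Cxcr3 (chrX:101731535-101734269, minus strand) 0 to 13, so that the lack of a peak over these 2 genes says little at this depth. The enrichment value of Cxcr3 lost its call without WT IR Input replicate 1 (adjusted p = 0.149), without cKO IR IP replicate 1 (0.0676) and, in cKO Ctrl, without IP replicate 1 (0.132), IP replicate 3 (0.0865) or Input replicate 3 (0.376).

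The antibody enrichment of 6 receptors differed between genotypes in the untreated tumours, where labels and Lyz2 went together. In cKO Ctrl vs WT Ctrl, IP over Input was called lower for 4 genes and higher for 2, beside 12.5% and 10.1% of all tested genes. Ccr2 fell by 0.65 on the log2 scale (SE 0.076, adjusted p = 3.67e-08), Ccr7 by 0.96 (SE 0.039, adjusted p = 7.13e-19) and Cx3cr1 by 1.02 (SE 0.081, adjusted p = 8.13e-12). The difference for Ccr1 was smaller, -0.21 (SE 0.046, adjusted p = 9.28e-04). Cxcr2 rose by 1.24 (SE 0.11, adjusted p = 1.42e-10) and Cxcr4 by 0.31 (SE 0.083, adjusted p = 0.00507). For Ccr2 and Ccr7 the Input was higher and the IP lower in cKO Ctrl, and for Cxcr2 the IP libraries overlapped while the Input was lower. Ccr3 and Cxcr3 did not pass the test, at 1.09 (SE 0.55, adjusted p = 0.172) and 0.63 (SE 1.11, adjusted p = 0.762).

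With irradiation, the mean IP over Input of both IR groups was compared with that of both Ctrl groups, a difference that stays the same whichever genotype an IR IP library belongs to. It was called lower for 2 genes and higher for 4, beside 23.1% and 25.3% of all tested genes. Cxcr2 rose most, by 1.59 (SE 0.082, adjusted p = 3.40e-17), a 3.0-fold rise in enrichment and rank 492 from the top among 17373 genes. Ccr2 rose by 0.98 (SE 0.055, adjusted p = 2.07e-16) and Cx3cr1 by 0.73 (SE 0.060, adjusted p = 2.85e-12), the latter still far below 0. Cxcr4 fell by 0.26 (SE 0.059, adjusted p = 3.70e-04). Ccr1 and Ccr7 differed little, by 0.088 (SE 0.033, adjusted p = 0.0264) and -0.093 (SE 0.028, adjusted p = 0.00564), and without WT IR Input replicate 1 or cKO Ctrl Input replicate 2 the adjusted p of Ccr1 was 0.0506 and 0.0588. The 3 genes whose Input fell after irradiation, Ccr2, Cx3cr1 and Cxcr2, were thus the 3 with the largest rise in IP over Input, and the same Input libraries enter both measures. Ccr3 and Cxcr3 did not pass the test, at 0.18 (SE 0.39, adjusted p = 0.752) and -0.44 (SE 0.80, adjusted p = 0.696).

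Among the genes of the ligands, those of the Ccr2 ligands Ccl12, Ccl7 and Ccl2 were called higher in irradiated cKO than in irradiated WT. Those of Ccl7 and Ccl2 were called higher in untreated cKO too. Of 21 listed ligand genes 18 were tested, and in cKO IR vs WT IR 13 were called higher and 3 lower, with a median log2 difference of 0.84 against -0.0028 over all genes, of which 23.9% were called higher and 23.8% lower. In cKO Ctrl vs WT Ctrl 9 were higher and 1 lower, beside 8.05% and 7.61% of all genes. In WT IR vs WT Ctrl 8 were higher and 6 lower, beside 14.7% and 17% of all genes, and in cKO IR vs cKO Ctrl 12 higher and 1 lower, beside 21.8% and 23.8%. The named ligands were those that changed most. Ccl12, a ligand of Ccr2, had 4, 9 and 5 counts in WT Ctrl, 0 in all 3 WT IR Inputs, 10, 4 and 1 counts in cKO Ctrl and 27, 26 and 24 in cKO IR. It was called higher in cKO IR vs WT IR (adjusted p = 3.82e-05), at least 8.40-fold against a floor of 3 counts per WT IR library, and lower in WT IR vs WT Ctrl (adjusted p = 0.00655). Ccl2, the main ligand of Ccr2, changed by -0.61 (SE 0.10, adjusted p = 1.08e-04) in WT IR and exceeded its WT IR level in cKO IR by 2.13 (SE 0.099, adjusted p = 1.35e-12). Ccl7, another ligand of Ccr2, was higher in cKO IR by 3.24 (SE 0.40, adjusted p = 1.03e-06) at a mean of 0.647 CPM over the 12 Inputs. In cKO Ctrl vs WT Ctrl, Ccl2 differed by 1.095 (SE 0.094, adjusted p = 5.06e-08) and Ccl7 by 1.22 (SE 0.36, adjusted p = 0.0234). Ccl12 was not called there (adjusted p = 0.866). Cxcl9, a ligand of Cxcr3, differed by 2.37 (SE 0.69, adjusted p = 0.0076) in cKO IR vs WT IR at a mean of 0.149 CPM.

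Of 16 other chemokine receptor genes 8 passed the filter, and 1 was called lower and 1 higher in WT IR vs WT Ctrl, and 2 lower and 3 higher in cKO IR vs WT IR. With 8 genes tested, these counts stand beside 17% lower and 14.7% higher over all genes in the first comparison and 23.8% and 23.9% in the second. Ccrl2, an atypical receptor that presents chemerin and does not signal, rose by 0.19 (SE 0.057, adjusted p = 0.0141) in WT IR and exceeded its WT IR level in cKO IR by 0.37 (SE 0.056, adjusted p = 1.60e-05). Ccr9, the gut homing receptor, differed by -0.91 (SE 0.31, adjusted p = 0.0308) in WT IR at a mean of 0.766 CPM, and Ccr6 by -2.10 (SE 0.62, adjusted p = 0.00835) in cKO IR vs WT IR at 0.197 CPM. Of 30 genes of receptor signalling and desensitisation, all tested, 19 were lower and 5 higher in WT IR vs WT Ctrl, 22 lower and 3 higher in cKO IR vs cKO Ctrl, and 9 lower and 12 higher in cKO IR vs WT IR, with median log2 differences of -0.16, -0.26 and -0.013. Over all genes the shares called lower and higher were 17% and 14.7%, 23.8% and 21.8%, and 23.8% and 23.9% in that order. Rgs1, which shortens signalling of G proteins, rose with irradiation, by 0.75 (SE 0.056, adjusted p = 1.81e-09) in WT and 0.91 (SE 0.056, adjusted p = 6.16e-11) in cKO. Grk3, a kinase that phosphorylates active receptors, was lower in cKO IR than in WT IR, -0.63 (SE 0.049, adjusted p = 1.90e-09). Rgs18, another regulator of G protein signalling, fell in WT IR, -0.94 (SE 0.17, adjusted p = 1.68e-04), at a mean of 3.28 CPM. In cKO the change of Rgs18 with irradiation was not called, at 0.14 (SE 0.16, adjusted p = 0.494). Its level in cKO IR exceeded that in WT IR by 1.01 (SE 0.17, adjusted p = 3.82e-05).

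The 8 genes followed different patterns over the 12 Inputs. Given as a description over 12 libraries that form 4 groups, Pearson's r of log2 CPM was 0.969 between Ccr2 and Cx3cr1, -0.919 between Ccr7 and Cxcr2 and -0.0209 between Ccr1 and Cx3cr1. Among 11661 genes with a mean of at least 1 CPM, those most like Ccr7 were Irf8 (r = 0.995), Clmp (r = 0.991) and Slc7a2 (r = 0.991), of which Irf8 is a transcription factor of monocyte and dendritic cell development. Those most like Cxcr2 were Slc2a3 (r = 0.991), Syne1 (r = 0.990) and Itgb2l (r = 0.987), of which Slc2a3 is a glucose transporter. Those most like Cx3cr1 were Gda (r = 0.991), Mcm7 (r = 0.991) and Nr4a1 (r = 0.990), and those most like Ccr2 were Ikzf1 (r = 0.984), Gda (r = 0.983) and Slfn9 (r = 0.982), so that Gda, the guanine deaminase gene, stood in both lists. Those most like Ccr1 were Pid1 (r = 0.974), Acod1 (r = 0.971) and Fibp (r = 0.970), of which Acod1 makes itaconate in macrophages. Those most like Cxcr4 were Prkar1a (r = 0.981), Immp1l (r = 0.978) and Cd63 (r = 0.977). For Ccr3 and Cxcr3 the highest values, 0.937 with Cdk8 and 0.837 with Cdv3, rest on low counts.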

How the data were processed

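CD11b+ cells from MC38 tumours were profiled by MeRIP-seq as 12 Input and 12 m6A IP libraries, 3 per group, grouped by their labels. The members and gene lists were chosen with earlier results of these data known. The authors ran Trimmomatic 0.39, HISAT on mm10 with GENCODE vM19 and then HTSeq, as their methods state, and the deposited values are raw counts, one table per library. Reads assigned to no feature (2.86 to 6.55%) or to more than 1 gene (2.19 to 2.58%) stood in rows of their own and were left out. The strand setting of the counting is not given in the sources used here. The authors called peaks with MACS2 per library and strand. The deposited peak lists give a fold enrichment, −log10 p-value and −log10 q-value per peak (lowest −log10 q 2.00075) and a display score, and the control library used is not given in the sources used here.

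Genes reaching 10 counts in 3 or more libraries were tested with edgeR 4.0.16 in R 4.3.3 (TMM scaling, quasi-likelihood F test, Benjamini-Hochberg adjusted p under 0.05), 16090 genes over the 12 Inputs and 17373 over all 24 libraries. The SE was taken from the log2 change and its F value, and a 95% interval from the SE by the normal distribution. CPM used the gene count total of each library, and log2 CPM a prior count of 2. FPKM divided CPM by the merged exon length in kilobases. Gene models were GENCODE vM21, to which 54409 of 54446 identifiers matched. The scripts were tested on simulated data. Alternatives were RLE scaling, other count filters, DESeq2 1.42.0, only the libraries compared, a replicate block and leaving out each library, and the fit of the 12 Ctrl libraries alone was added after the data were seen. From each other list at most 4 tested genes were named, those called with the largest absolute log2 change in WT IR vs WT Ctrl or cKO IR vs WT IR. Of the genes so chosen, 1 is not reported here. As most alike, the 3 genes of highest Pearson r were named.

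Marker lists covered neutrophils, inflammatory monocytes, macrophages, dendritic cells, eosinophils, T, NK and B cells, plasmacytoid dendritic cells, mast cells and basophils, tumour epithelium, and endothelium and fibroblasts. Summits within 50 bases of each other were joined into 1 place, and a peak was shared by a group when all 3 replicates had it with at least 1 base in common.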

Additional observations from a re-analysis of the deposited data

Results flagged for a closer look

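The change with irradiation differed between the genotypes, by the interaction term of edgeR's quasi-likelihood test, for Cxcr2 (0.71 on the log2 scale), Cxcr4 (0.40) and Cx3cr1 (0.17). The IP over Input differed between cKO Ctrl and WT Ctrl, by the test of the difference itself, for Cxcr2 (1.24), Cx3cr1 (-1.02), Ccr7 (-0.96), Ccr2 (-0.65), Cxcr4 (0.31) and Ccr1 (-0.21). The IP over Input averaged over both genotypes differed between IR and Ctrl for Cxcr2 (1.59), Ccr2 (0.98), Cx3cr1 (0.73), Cxcr4 (-0.26), Ccr7 (-0.093) and Ccr1 (0.088).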

How the results depend on the processing

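Of 1326 alternative values over 103 results, 1277 were classed as unchanged. For log2 values this meant the same direction and the same side of the threshold. The other 158 values were counts of genes or peaks, of which 154 were classed as unchanged because they stayed near the main count. An example is 4 to 6 receptors called in WT IR vs WT Ctrl when 1 library was left out, against 5 in the main fit. Counting only peaks of at least 4-fold enrichment lowered the number of shared peaks over the receptor genes from 6 to 3 in WT Ctrl, 7 to 2 in cKO Ctrl, 8 to 4 in the libraries labelled WT IR and 8 to 5 in those labelled cKO IR. Leaving out 1 library at a time turned the sign of values that had not passed the test. The ranges were -0.015 to 0.060 for the Ccr1 interaction, -0.022 to 0.24 for Ccr3 in WT IR vs WT Ctrl and -0.16 to 0.40 for the Ccr3 change in IP over Input with irradiation. For Cxcr3 they were -1.27 to 0.34 in cKO IR vs WT IR, -0.95 to 0.41 in cKO IR vs cKO Ctrl, -0.48 to 1.17 for the interaction and -0.89 to 0.18 for the change in IP over Input with irradiation. No pairing by replicate number was seen: deviations of same-numbered libraries correlated at -0.043 to 0.018 between Input groups and -0.015 to 0.023 between Input and IP. If the replicates are technical, paired libraries could also correlate near 0, so these values cannot decide whether the numbers pair the samples. With a replicate block the Cxcr3 interaction was 0.20 instead of -0.042, and the adjusted p of Cxcr4 in WT IR vs WT Ctrl was 0.0526 and that of the Cx3cr1 interaction 0.0509. In the fit of only the 6 libraries compared the adjusted p of Cxcr4 in WT IR vs WT Ctrl was 0.134 and that of Ccr3 in cKO IR vs WT IR 0.0643. The cause of these changes was not tested. Low counts limit Ccr3 and Cxcr3.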
